A study of Homo sapiens with 6 samples.

Results

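Transcripts of 9 genes that carry, make or respond to retinoids were followed on 6 Affymetrix arrays: RARRES2, RARRES1, RBP4, CRABP1, CRABP2, ALDH1A3 and the receptor genes RARA, RARB and RARG. Members were chosen by name, with results of these arrays already known, among them the large difference of RARRES2, and the probe set leading each gene was chosen by its mean signal over all 6 arrays. Probe sets that the platform annotation assigns to 1 gene gave 22 probe sets for 8 of the 9 genes, out of 54613 probe sets and 19775 named genes in all. No probe set was assigned to CRABP1 alone, so its expression was not analysed here. The cells, labelled HepG2, a human line from a liver tumour, had been transfected by lipofection with a negative control siRNA (3 arrays) or an siRNA against RNF43 (3 arrays). RNA was taken 48 h later. RNF43 encodes an E3 ubiquitin ligase of the cell membrane and is known for clearing Wnt receptors of the Frizzled family. Each group rests on 1 siRNA and 1 cell line, and its 3 arrays are titled as biological replicates. What was kept separate between them, such as the culture or the transfection, is not described, so the p-values speak only of how far these arrays scatter.

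The antisense strand is the one that guides an siRNA to its target, and both are shown because the whole comparison rests on them. Capitals mark bases 2 to 8, counted from the 5′ end, which lead target pairing.
RNF43 siRNA, antisense: aUAAUAGCuuucuguucugtt
Negative control siRNA, antisense: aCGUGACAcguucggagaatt

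Retinol, or vitamin A, travels in blood bound to RBP4. Inside cells it is oxidised to retinal and then, by enzymes such as ALDH1A3, to retinoic acid. CRABP1 and CRABP2 carry retinoic acid in the cell, and the receptors RARA, RARB and RARG bind DNA with retinoid X receptors and switch genes on when retinoic acid binds them. RARRES1 and RARRES2 were named for their response to retinoids. RARRES2 encodes chemerin, a secreted chemoattractant and adipokine that liver makes in quantity. The liver is the main site of RBP4 synthesis, and its stellate cells store retinol esters.

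The labels were checked first. RNF43, read by its single probe set, had log2 signals of 7.65, 7.79 and 7.45 on the control arrays and 8.19, 8.22 and 8.41 on the arrays labelled RNF43 siRNA. The targeted transcript was therefore higher, not lower, where its siRNA was named (log2 difference 0.64, SE 0.14, limma adjusted p = 0.0098; exact two-sided permutation p = 0.1, the smallest that 3 against 3 arrays allow). Every direction below is that of arrays labelled RNF43 siRNA, which did not show a loss of the RNF43 transcript. The cell label was also not borne out. Of 8 hepatocyte markers, 7 lay below the median of all probe sets (log2 5.83), among them ALB, the albumin gene, with means of 4.19 and 4.24, and APOA1, an apolipoprotein gene, with 5.18 and 5.19. AFP, the oncofetal albumin, was the marker above that level, with means of 7.01 on control and 6.41 on RNF43 siRNA arrays. Stellate cell and fibroblast markers were above it in 4 of 8 genes. Control means were 13.36 for LUM, a proteoglycan gene, 10.66 for DCN, 10.61 for COL1A1 and 9.11 for COL3A1. The other 4 had means over the 6 arrays below that median, 5.01 for COL1A2, 4.04 for PDGFRB, 4.07 for PDGFRA and 5.53 for THY1. The single marker genes in this paragraph are named after their values were seen. Of the 4 above the median, the collagen gene COL3A1 fell 2.54-fold (log2 difference -1.34, SE 0.12, limma adjusted p = 4.94e-05) on RNF43 siRNA arrays. The proteoglycan gene DCN fell 1.46-fold there (-0.54, SE 0.11, limma adjusted p = 0.00459). LUM and COL1A1 differed by -0.18 and -0.20 and did not pass (limma adjusted p = 0.0926 and 0.172). Of 4 endothelial markers 1 was above that level, and of 4 blood and macrophage markers none. No gene of these lists was at 0 on every array. Summed over the 8, the linear signal of stellate cell and fibroblast markers was 14270 to 14571 on control arrays and 11440 to 12657 on the others. That of the hepatocyte markers was 306 to 390 and 217 to 286. The endothelial sum was 146 to 186 and 188 to 220, and that of blood and macrophage markers 50 to 99 and 35 to 84. The first 2 sums were thus lower and the endothelial sum higher on all RNF43 siRNA arrays, the last overlapped, and their part in the differences below was not tested. LUM, which did not pass, was the brightest gene in the stellate cell and fibroblast sum and so weighed most in it. Most genes in the hepatocyte and endothelial sums lay below the median of all probe sets.

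**Figure D1:**
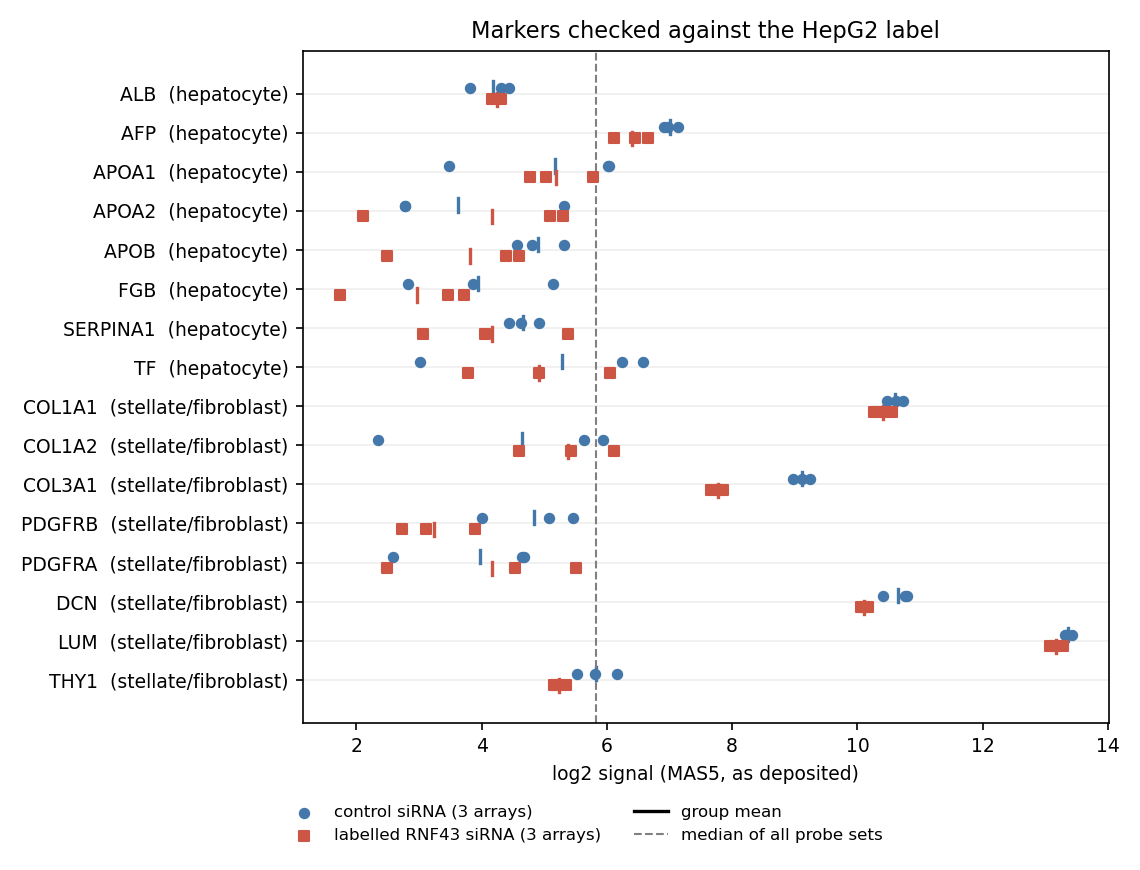
Log2 signals (horizontal axis) of 8 hepatocyte and 8 stellate cell or fibroblast marker genes on each array, as circles for 3 control and squares for 3 RNF43 siRNA arrays. Short vertical lines are group means and the dashed line is the median of all probe sets, 5.83. AFP alone among the hepatocyte markers has a mean above it, while LUM, DCN, COL1A1 and COL3A1 lie far above it. COL1A2, PDGFRB, PDGFRA and THY1 have means over all arrays below it.

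Windows of 250 bases before each annotated transcription start, from RefSeq on GRCh38.p14, were searched for the hexamer that each partner of a retinoic acid receptor pair recognises. It was spelled AGGTCA or AGTTCA, or with a G first as GGGTCA or GGTTCA, on either strand. Repeats of any of these in the same orientation were counted with 1, 2 or 5 bases between them. All 9 genes were matched, with 16 windows, of which 6 (37.5%) held such a hexamer against 33.8% of 35114 windows genome-wide. The windows of RBP4, ALDH1A3, RARRES1, CRABP1 and RARG held none. The RARRES2 window is shown since this gene differed most, and an RARB window since it holds the retinoic acid response element for which RARB is known. Capitals mark the hexamers.
RARRES2 promoter, chr7:150341630-150341879, minus strand: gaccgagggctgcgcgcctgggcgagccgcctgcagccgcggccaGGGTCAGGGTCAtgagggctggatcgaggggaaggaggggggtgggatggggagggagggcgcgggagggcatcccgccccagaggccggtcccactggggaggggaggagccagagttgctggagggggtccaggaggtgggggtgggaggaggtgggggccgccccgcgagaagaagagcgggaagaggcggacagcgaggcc
RARB promoter, chr3:25428013-25428262, plus strand: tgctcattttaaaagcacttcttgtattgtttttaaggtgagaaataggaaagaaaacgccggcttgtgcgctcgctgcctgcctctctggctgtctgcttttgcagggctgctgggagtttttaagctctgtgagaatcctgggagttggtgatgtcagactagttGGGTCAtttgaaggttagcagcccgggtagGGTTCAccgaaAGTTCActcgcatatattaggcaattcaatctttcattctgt

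In the RARRES2 window a pair of GGGTCA copies stood back to back, starting 205 and 199 bases before the start, with no base between them and so outside the repeats searched. The RARB window held 3 hexamers, and the last of them formed a direct repeat with 5 bases between, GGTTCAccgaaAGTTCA, at chr3:25428210-25428226, beginning 53 bases before the start. Such a repeat stood in 0.074% of the windows genome-wide. These matches describe the letters only.

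Of the 9 genes, 7 had a leading probe set in the upper 50% by mean signal (log2 above 5.83) and were tested, RARB fell below it and CRABP1 had no probe set to use. Among the 7, the genes RARRES2, RBP4 and ALDH1A3 were called higher and none lower (limma across all tested genes, adjusted p under 0.05), where 22.6% of the 11853 genes tested were called, 11.5% higher and 11.1% lower. With each array centred on its median, 1534 genes were higher and 1044 lower, against 1364 and 1320. The groups did not overlap for these same 3 members, as for 38.9% of tested genes. By probe set, 12 of 22 were above the filter and 3 were called, against 15.5% of 27306. Since the members were picked with this contrast known, nothing is read from these counts. The members nearest the filter were 206391_at of RARRES1, just inside at a mean of 5.85, and 203750_s_at of RARA, just outside at 5.75. In RNA from whole cultures, a change in the number of cells of a kind and a change in transcript per cell cannot be told apart.

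**Figure D2:**
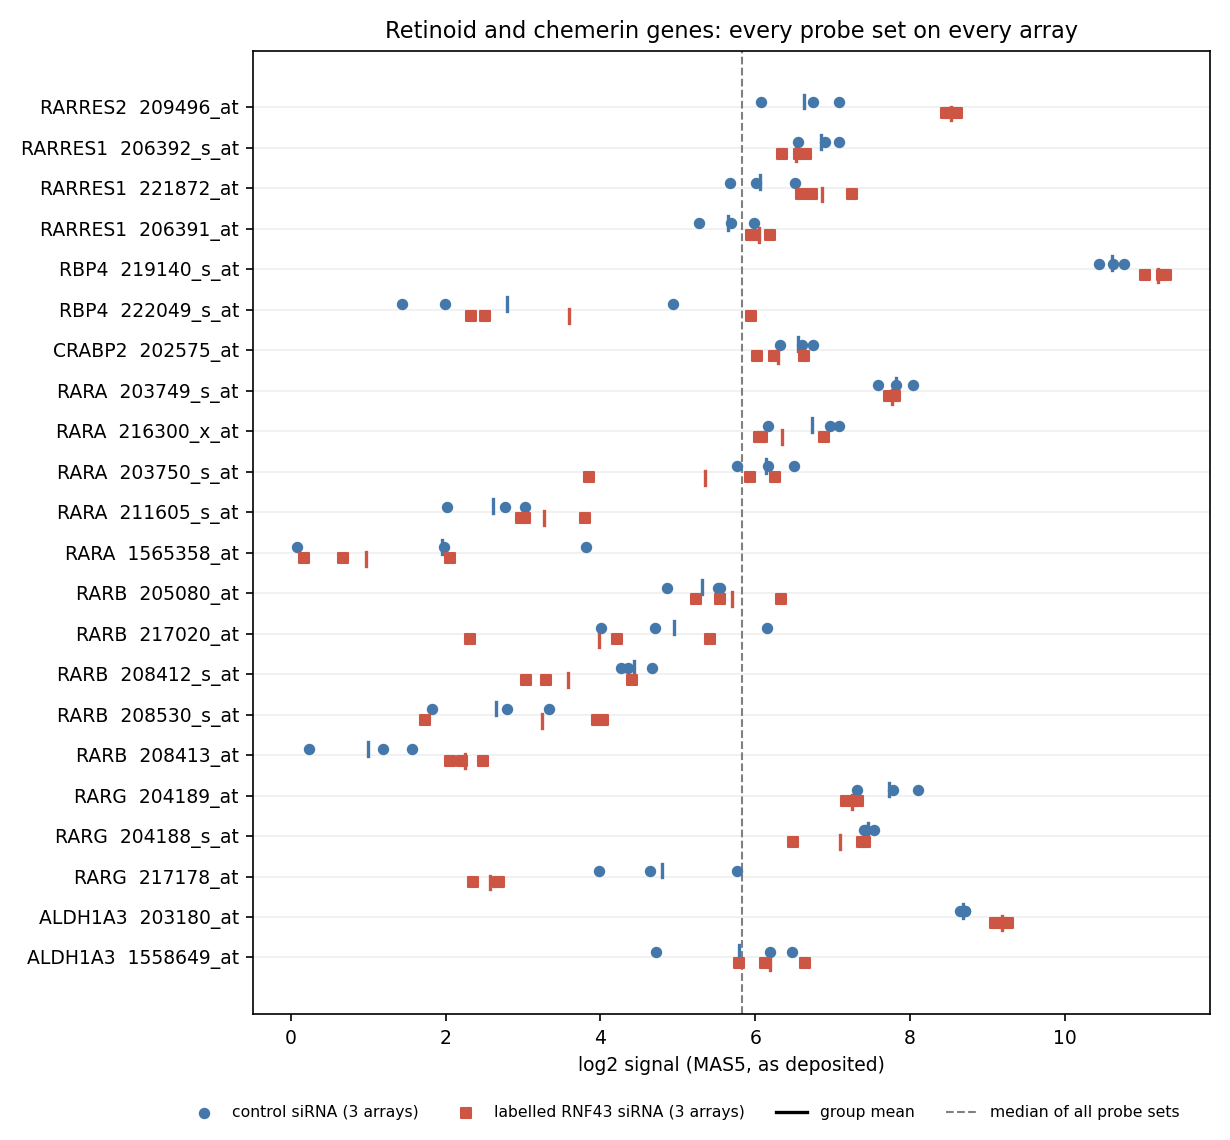
Log2 signals (horizontal axis) of all 22 probe sets, grouped by gene with the brightest first, on 3 control (circles) and 3 RNF43 siRNA arrays (squares); short vertical lines are group means and the dashed line is the median of all probe sets, 5.83. RARRES2, RBP4 and ALDH1A3 separate the groups on their leading probe sets, and all 5 RARB probe sets have means left of the dashed line.

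Chemerin showed the greatest difference of the 7 members tested. Its single probe set, 209496_at of RARRES2, had log2 signals of 6.75, 7.08 and 6.07 on the control arrays and 8.51, 8.61 and 8.46 on the RNF43 siRNA arrays. All 3 RNF43 siRNA values lay above all controls, and the control arrays were the more scattered, with an SD of 0.51 against 0.08 (n = 3 each), since control replicate 3 was low. The mean signal was 6.64 with control and 8.53 with RNF43 siRNA, 1.89 higher on the log2 scale (SE 0.23), which is 3.71-fold with a 95% confidence interval of 2.59 to 5.31. It ranked 10 among the 11853 genes by size of rise. Since RARRES2 was picked for this difference, its values, its call above and the interval are a description only, and its p is not printed. With 64 added to the linear signal, which damps dim values, the log2 difference was 1.39.

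RARRES1, the other gene named for its retinoid response, encodes a membrane protein related to latexin. Its 3 probe sets did not point one way. The brightest, 206392_s_at, had values of 6.90, 6.55 and 7.08 on control and 6.66, 6.34 and 6.57 on RNF43 siRNA arrays. These overlap; the log2 difference, -0.32 (SE 0.23), did not pass (adjusted p = 0.374 in limma). On 221872_at the control values were 6.01, 5.67 and 6.52 and the others 6.59, 6.73 and 7.25, with no overlap. That difference of 0.79 (SE 0.30) did not pass either (limma over probe sets, adjusted p = 0.113). The dimmest, 206391_at, differed by 0.39 (SE 0.31, adjusted p = 0.451 by limma over probe sets). Its control mean, 5.65, was below the filter, which it passed through the RNF43 siRNA arrays (mean 6.04). Nothing is read from its direction. The direction given for RARRES1 therefore depends on the probe set: without those ending in _x_at or _s_at, which can bind several transcripts, 221872_at leads at 0.79 (limma adjusted p = 0.0846), and the mean of the 3 gave 0.29.

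RBP4, the plasma carrier of retinol, rose. On its leading probe set 219140_s_at the control signals were 10.62, 10.44 and 10.77 and those with RNF43 siRNA 11.04, 11.26 and 11.31. The lowest RNF43 siRNA array was above the highest control. Group means of 10.61 ± 0.16 and 11.20 ± 0.14 (SD, n = 3) gave a 1.51-fold difference with a 95% confidence interval of 1.29 to 1.76 (log2 difference 0.59, SE 0.10, limma adjusted p = 0.00242). A second RBP4 probe set, 222049_s_at, was dim, with signals from 1.44 to 5.95 and overlapping groups. Averaging both left a log2 difference of 0.70 that did not pass (limma adjusted p = 0.488). RBP4 stood far above the filter on arrays where ALB and APOA1 were below it, as was TTR, the gene of transthyretin that holds RBP4 in plasma, with means of 5.09 and 5.09. TTR is named after its values were seen.

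CRABP2 delivers retinoic acid to its receptors in the nucleus. On 202575_at, its single probe set, the control signals were 6.60, 6.32 and 6.75 and the RNF43 siRNA signals 6.24, 6.63 and 6.02. The groups overlapped. The log2 difference was -0.26 (SE 0.27; adjusted p = 0.53 in limma), with a 95% confidence interval of -0.86 to 0.33, which spans 0. Single arrays moved it, to -0.43 without RNF43 siRNA replicate 2 and to -0.13 without RNF43 siRNA replicate 3, and it did not pass in either case (adjusted p = 0.375 and 0.794 by limma).

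ALDH1A3, which oxidises retinal to retinoic acid, rose. The control arrays were tight at 8.71, 8.65 and 8.71 on 203180_at, and the RNF43 siRNA arrays gave 9.20, 9.10 and 9.27. No values overlapped. The means of 8.69 ± 0.03 and 9.19 ± 0.09 (SD, n = 3) differed 1.41-fold, with a 95% confidence interval of 1.21 to 1.64 (log2 difference 0.50, SE 0.10, limma adjusted p = 0.00501). Its second probe set, 1558649_at, was close to the filter, with control signals of 6.19, 6.48 and 4.72 and RNF43 siRNA signals of 6.64, 6.13 and 5.79. There the groups overlapped (difference 0.39, SE 0.47, limma adjusted p = 0.641 over probe sets), and with the mean of both probe sets the gene's call was lost (log2 difference 0.44, adjusted p = 0.266 by limma).

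**Figure D3:**
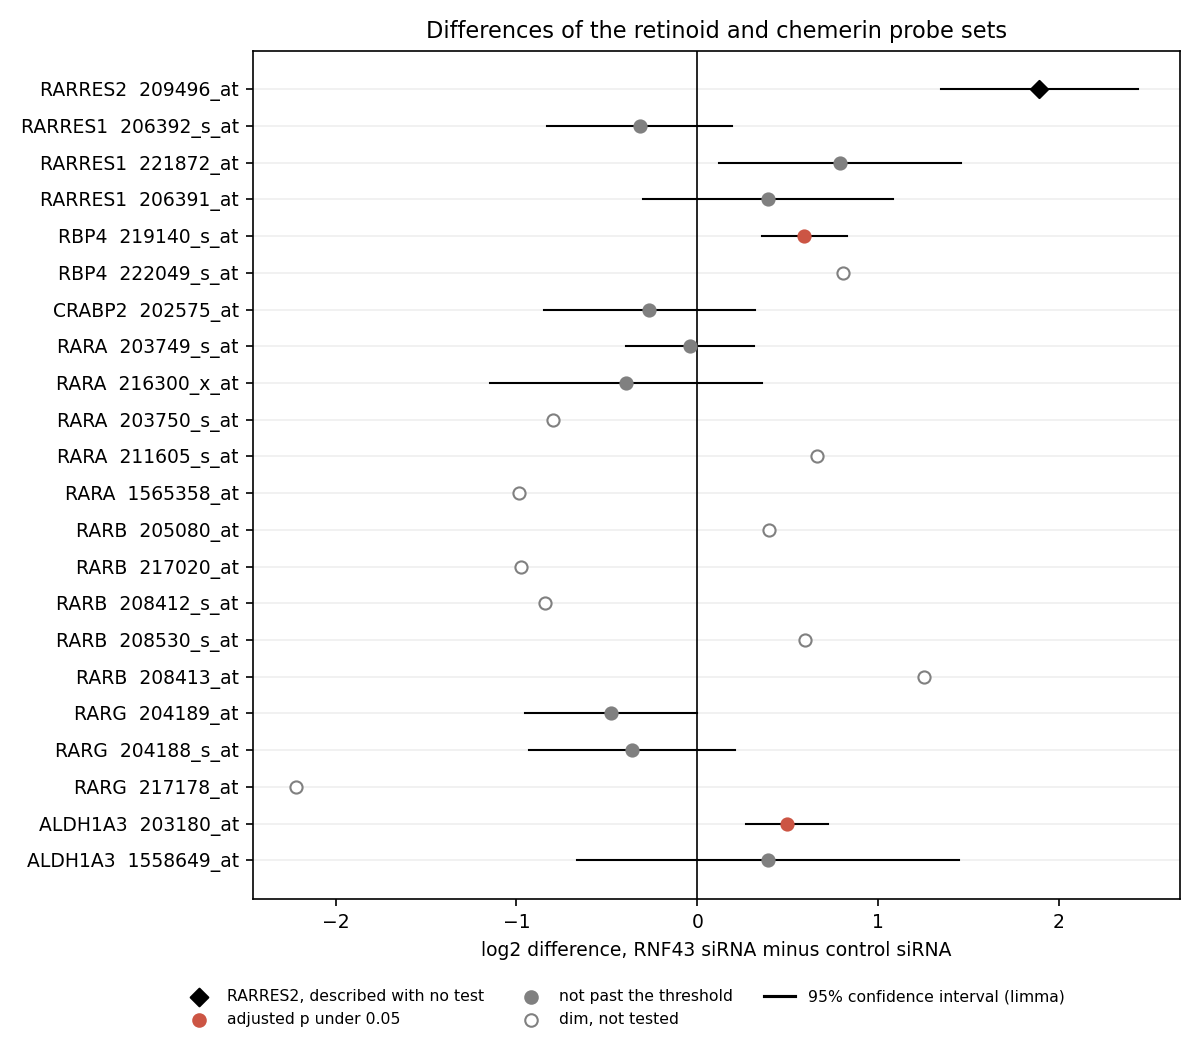
Log2 difference, RNF43 siRNA minus control siRNA (horizontal axis), for each of the 22 probe sets. Lines are 95% confidence intervals from the fit over probe sets, filled circles were tested, open circles were dim and not tested, and the diamond is RARRES2 at 1.89; RARRES1 lies on both sides of 0, and the 3 RARG probe sets all lie below 0.

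Among the retinoic acid receptors, none passed the test. RARA, on its leading probe set 203749_s_at, had signals of 7.58, 8.04 and 7.82 with control and 7.73, 7.78 and 7.80 with RNF43 siRNA. The RNF43 siRNA values lay inside the control range. The log2 difference was -0.04 (SE 0.16, limma adjusted p = 0.887), with a 95% confidence interval of -0.38 to 0.30. It became 0.072 without control siRNA replicate 2. A second RARA probe set above the filter, 216300_x_at, differed by -0.39 (SE 0.33, limma adjusted p = 0.49 over probe sets), and 3 more were dim.

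RARG was lower on each of its 3 probe sets, but did not pass on those tested. On 204189_at the control signals were 7.31, 8.10 and 7.78, and the RNF43 siRNA signals were 7.17, 7.27 and 7.33. The highest RNF43 siRNA array lay just above the lowest control. The log2 difference of -0.48 (SE 0.21, limma adjusted p = 0.131) grew to -0.69 without control siRNA replicate 1, where it passed (adjusted p = 0.0375 by limma), and shrank to -0.29 without control siRNA replicate 2 (adjusted p = 0.411 by limma). On 204188_s_at the signals were 7.54, 7.40 and 7.43 against 7.42, 6.49 and 7.38, so that RNF43 siRNA replicate 2 alone stood low (difference -0.36, SE 0.25, limma adjusted p = 0.396 over probe sets). The dim probe set 217178_at read 4.64, 3.98 and 5.77 with control and 2.69, 2.36 and 2.68 with RNF43 siRNA, without overlap, and was not tested. The mean of the 3 probe sets fell by 1.02 on the log2 scale (limma adjusted p = 0.0342), and holds that dim probe set.

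RARB is itself a target of retinoic acid, through the repeat printed above. All 5 of its probe sets were dim. The brightest, 205080_at, gave 4.86, 5.54 and 5.52 on control and 5.54, 5.23 and 6.33 on RNF43 siRNA arrays, overlapping, with means of 5.30 and 5.70. The other 4 had means over the 6 arrays of 1.62 to 4.47. They differed by -0.98, -0.84, 0.60 and 1.25 on the log2 scale, with no shared direction. RARB was thus below the median of all probe sets, and its difference was not tested in the main fit. Whether its signal was above background was not tested.

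The 5 tested genes whose values lay nearest to those of RARRES2 were HES5, LAMC1, NPTX1, CACUL1 and HTRA1. Nearness is the root mean square distance over the 6 arrays after each gene is centred on its control mean. HES5, a Notch target gene, was nearest at 0.27, LAMC1, a laminin chain, lay at 0.32, NPTX1, a neuronal pentraxin, at 0.33, CACUL1 at 0.33, and HTRA1, a secreted protease, at 0.34. The median over all tested genes but RARRES2 was 1.38. A gene without a difference between the groups also lies far from RARRES2 by this measure. The log2 differences of the 5 were 1.82 for HES5, 1.72 for LAMC1, 1.56 for NPTX1, 1.71 for CACUL1 and 2.02 for HTRA1. Both the small distances and differences of this size follow from how the 5 were picked, and are a description only. HES5 was dim on the control arrays, with a mean of 4.99, and passed the filter through the RNF43 siRNA arrays. It shared with RARRES2 the wide control scatter, with an SD of 0.43, whereas the control SD of the other 4 was 0.05 to 0.12. LAMC1 and CACUL1 each have another probe set above the filter that was not called, with differences of -0.15 and 0.40.

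**Figure D4:**
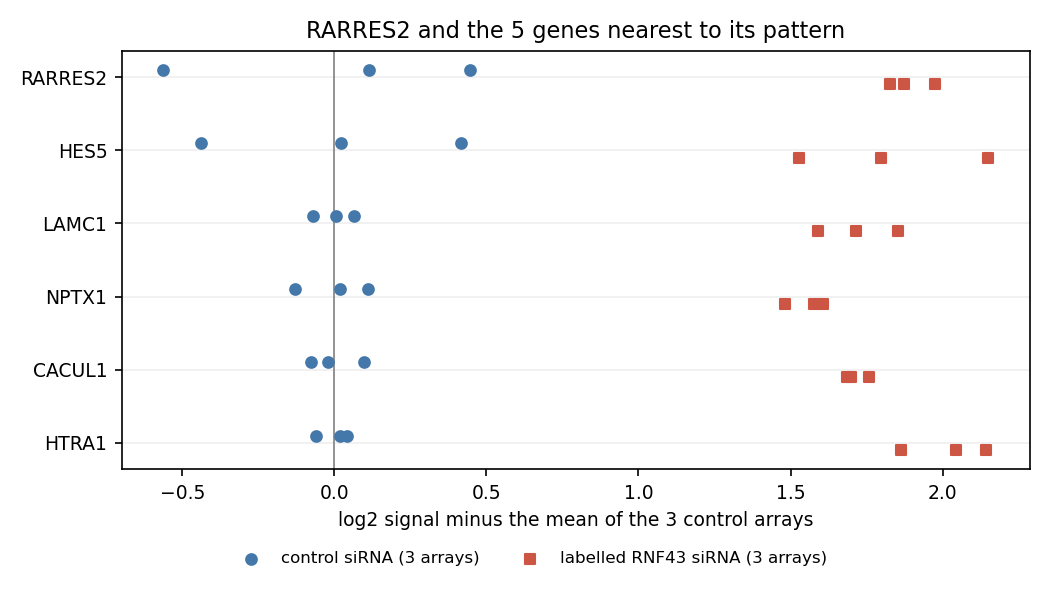
Log2 signal minus the mean of the 3 control arrays (horizontal axis) for RARRES2 and the 5 tested genes nearest to it, with control arrays as circles and RNF43 siRNA arrays as squares. RARRES2 and HES5 have controls spread over both sides of 0, and the other 4 genes have controls close to 0.

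The rest of the retinoid and chemerin pathways was read from 6 lists of 86 genes, of which 73 had a probe set used and 40 were tested. Of the 40, 3 rose and 4 fell (17.5% called against 22.6% of all tested genes), with a median log2 difference of 0.02 against 0.00 over all genes. Calls in these lists moved with single arrays: without RNF43 siRNA replicate 2 there were 2, and without control siRNA replicate 1, control siRNA replicate 2 or RNF43 siRNA replicate 1 there were 4. With a mean over probe sets, or without those ending in _x_at or _s_at, there were 2.

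Enzymes that interconvert retinol and retinal held 5 of the 7 calls. Of 10 tested genes in that list, 2 rose and 3 fell (50% called against 22.6% of all tested genes), with a median log2 difference of 0.08. AKR1B10, a retinal reductase, fell 2.72-fold, from 7.91, 7.71 and 7.91 to 6.10, 6.31 and 6.79 (log2 difference -1.44, SE 0.22, limma adjusted p = 0.00112). Its groups were well apart, and the call held under all 13 alternatives in which it was tested; its probe set ends in _s_at, and near-identical copies of the gene could share its signal. DHRS9, a short-chain retinol dehydrogenase, fell 1.83-fold (limma adjusted p = 0.037), and ADH4, an alcohol dehydrogenase that acts on retinol, fell 1.81-fold on a probe set ending in _x_at (limma adjusted p = 0.0377). The other ADH4 probe sets, all dim and not tested, went the other way, with log2 differences of 1.23, 0.14 and 0.38. The ADH4 call was lost without any 1 array, and that of DHRS9 without any 1 array other than control siRNA replicate 2. RDH11, a retinal reductase, rose 1.23-fold and RDH10, which oxidises retinol to retinal, 1.21-fold, both on their brightest probe sets (limma adjusted p = 0.0207 and 0.0339). In the fit over probe sets, the leading probe sets of ADH4, DHRS9 and RDH10 did not pass (limma adjusted p = 0.0515, 0.0521 and 0.0524). Averaged over its probe sets RDH10 turned to -0.16, and the RDH11 call was lost in the same way (0.054). Leaving out control siRNA replicate 2, RNF43 siRNA replicate 1 or RNF43 siRNA replicate 2 ended both calls, leaving out control siRNA replicate 1 that of RDH10, and leaving out control siRNA replicate 3 that of RDH11.

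Among 11 tested retinoid X receptor and coregulator genes 1 rose and 1 fell (18.2% called against 22.6% of all tested genes), with a median log2 difference of -0.12. TRIM24, a coregulator of retinoic acid receptors, rose 1.39-fold, from 10.00, 10.05 and 10.16 to 10.43, 10.60 and 10.60 (log2 difference 0.47, SE 0.09, limma adjusted p = 0.00323). A second TRIM24 probe set above the filter rose too, by 0.39, although with the mean of all its probe sets the call was lost (limma adjusted p = 0.172). FABP5, which carries retinoic acid to PPARD, fell 1.20-fold (log2 difference -0.26, SE 0.07, limma adjusted p = 0.0202). Leaving out control siRNA replicate 2 or 3, or RNF43 siRNA replicate 1 or 2, ended that call, and its _s_at probe set may also bind copies of the gene.

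The other lists held no call. None of 4 tested genes of retinoid uptake and storage, 2 retinoic acid hydroxylases, 9 genes known to respond to retinoic acid or 4 chemerin receptor and protease genes passed in limma, with median log2 differences of 0.18, 0.09, 0.22 and -0.17. CYP26B1, a retinoic acid hydroxylase named after its values were seen, came close, with 8.96, 9.21 and 9.07 on control and 9.25, 9.51 and 9.36 on RNF43 siRNA arrays (log2 difference 0.29, limma adjusted p = 0.079). PRAME, of the coregulator list and named in the same way, came as close in the other direction (log2 difference -0.34, limma adjusted p = 0.0764). The signalling receptors of chemerin, CMKLR1 and CMKLR2, were both dim, and the binding receptor CCRL2 differed by -0.15 (limma adjusted p = 0.462). These were likewise named after their values were seen.

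**Figure D5:**
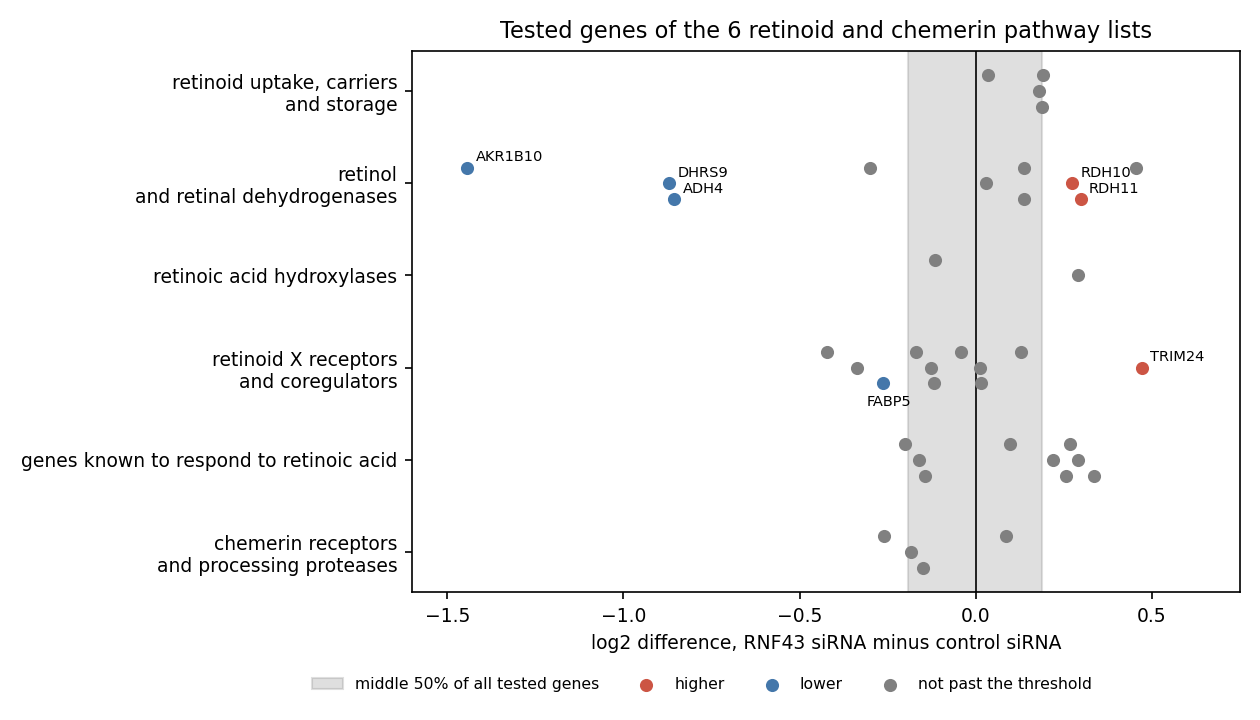
Log2 difference, RNF43 siRNA minus control siRNA (horizontal axis), of the 40 tested genes in 6 pathway lists, 1 point a gene, red where it rose, blue where it fell and grey where it did not pass the test. The band from -0.19 to 0.19 holds the middle 50% of all tested genes. AKR1B10 at -1.44 lies farthest out, and 5 of the 7 named genes are in the list titled retinol and retinal dehydrogenases.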

How the data were processed

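Values for HG-U133 Plus 2.0 arrays hybridised with cRNA from 6 µg total RNA were log2 signals deposited by the authors, with MAS5 named in the submitters' processing notes, while neither a MAS5 version nor a scaling target was given in the sources used here. Read as base 2, linear means trimmed at both ends agreed across the 6 arrays (497.03 to 497.23), so arrays had been scaled, which would hide a shift of all transcripts. Because MAS5 takes off mismatch signal, dim probe sets scatter widely. Median log2 signals were 5.89 to 6.02, and Pearson's r across genes was 0.987 to 0.991 within and 0.975 to 0.980 between groups; genes are not independent replicates. The number of arrays limits the precision. No 2 arrays were duplicates (at most 0.00186% of values equal).

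Arrays were grouped by title. Probe sets were named through GEO's platform annotation with symbols brought up to RefSeq (41091 probe sets with 1 gene, 1801 with several, 11721 unnamed here). Each gene was read by its brightest probe set and tested if that lay in the upper 50%, with limma 3.58.1 in R 4.3.3 (two-sided; a linear model per gene, eBayes variances that follow mean signal, Benjamini-Hochberg over all genes, or over all probe sets above the filter); the steps were tested on simulated data. The members and lists were chosen with earlier results of these data known. Named genes were RNF43, all members, the called pathway genes and the 5 genes nearest to RARRES2; others are stated where they occur. Alternatives covered normalization, centring, added signal, filters, the variance model, probe set choice, a replicate block and leaving out each array. Detection calls and scan dates were not used here.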

Additional observations from a re-analysis of the deposited data

How the results depend on the processing

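The count of members called was 2 to 4 over all 15 alternatives and that of member probe sets 2 to 4 over 13. It was 2 where fewer were tested (upper 30% of probe sets, or without those ending in _x_at or _s_at, which leaves no RBP4 probe set), and with probe sets averaged per gene. The genes behind the count also changed. With probe sets averaged, RBP4 and ALDH1A3 were no longer called and RARG was called lower, so 1 member was higher and 1 lower. Without control siRNA replicate 1, 3 members were higher and 1, RARG, was lower. RARRES2 kept its direction in all 14 alternatives that tested it, with log2 differences of 1.39 to 2.12. Of the members' directions, 2 turned: RARRES1 from -0.32 to 0.29 when its probe sets were averaged and to 0.79 without those ending in _x_at or _s_at, and RARA from -0.04 to 0.072 without control siRNA replicate 2. Among pathway genes RDH10 turned, to -0.16 when its probe sets were averaged. The cause was not tested. The RNF43 difference was 0.51 to 0.72 and passed in all 14 alternatives that tested it.

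Over all genes 2684 were called, 1587 with probe sets averaged per gene and 1739 to 2653 without any 1 array, the lowest without RNF43 siRNA replicate 2. With arrays centred on their medians 1534 were higher and 1044 lower, against 1364 and 1320. The 7 called pathway genes became 4 in the upper 30% of probe sets (31 tested), 2 with probe sets averaged per gene, 2 without probe sets ending in _x_at or _s_at (23 tested), and 2 to 5 without any 1 array.

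With the replicate number as a block there were 3908 called genes, 12 called pathway genes and the same 3 members. Arrays of 1 number deviated together with r of 0.16, 0.08 and 0.27 across genes, and arrays of unlike number with r of -0.21 to 0.09. Each RNF43 siRNA array correlated best with the control array of its own number. Control siRNA replicate 2, however, correlated best with RNF43 siRNA replicate 1 (0.09). Whether arrays of 1 number were handled together is not described, and pairing was not tested. Dim probe sets, 10 of the 22, lay below the median of all probe sets, where signals scatter widely. How near to background they were was not measured.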
